A study of Mus musculus with 36 samples.

Results

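The liver RNA of decitabine-treated Tet1 KO YAP Tg mice was set against that of YAP Tg mice, to see for which genes the treated livers stayed short of the YAP Tg level, matched it or went past it. The comparison holds 6 of the 36 samples of the series, 3 libraries in each group, chosen by genotype and treatment in the sample labels. Untreated Tet1 KO YAP Tg livers (3 libraries) and control livers of wild type genotype (3 libraries) are given beside them for the same genes. All mice were C57BL/6 and all 4 groups received doxycycline, at 50 mg/L in the drinking water, which switches on the YAP transgene in the 3 groups that carry it. Tet1 KO YAP Tg mice lack both copies of Tet1 by label, and the treated ones were kept on doxycycline from 1 month of age and injected into the abdomen with decitabine at 0.5 mg/kg each day for 10 days. The labels describe doxycycline both for mice of 1 month and for nursing mothers of newborn pups, and do not say which schedule or how many days the YAP Tg, untreated Tet1 KO YAP Tg and control libraries had. Age and length of induction therefore cannot be told apart from decitabine and genotype in any comparison here. The promoter that drives the transgene is not given in the sources used here, nor is it stated that the 3 libraries of a group came from separate mice, so p-values measure the spread between these libraries, which may be technical.

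YAP, encoded by Yap1, is a co-activator that enters the nucleus when the Hippo kinase cascade is off and switches on growth genes through the TEAD DNA-binding proteins. In mouse liver, forced YAP activity is known to drive enlargement, a fetal-like gene programme and loss of metabolic zonation. TET1 oxidises 5-methylcytosine, a step towards unmethylated DNA, and decitabine is a cytidine analogue that is incorporated into DNA and traps DNA methyltransferases.

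Levels are normalised reads: whole reads per gene, recovered from the deposited values, scaled to library size and corrected for library composition. They rank a gene across libraries, not 1 gene against another, because they are not divided by transcript length. A gene was called higher or lower at an adjusted p below 0.05 in limma, and was said to match YAP Tg when the 95% confidence interval of its log2 fold change (decitabine-treated over YAP Tg) lay wholly within 2-fold in either direction. The 6 libraries held 25781499, 31714066 and 20682023 reads in the treated group and 23528750, 24765820 and 23468633 reads in the YAP Tg group. The spread between treated livers was wider than between YAP Tg livers: the coefficient of variation beyond sampling noise was 0.176 to 0.298 in pairs of treated libraries, 0.0213 to 0.0265 in untreated Tet1 KO YAP Tg pairs, 0.00672 to 0.0363 in YAP Tg pairs and 0.0221 to 0.134 in control pairs. The YAP Tg libraries still differed beyond sampling noise, with a chi-square of 1.44 to 3.75 per degree of freedom, and were kept as 3. With their reads added together as 1 sample, 30 genes were called higher and 320 lower. Among the 476 calls in the gene lists, the sets of state genes and the other genes named here, 41 held in that fit, and those of the 41 that are named below are marked.

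Across 13429 genes tested, 2546 (19%) were higher and 2153 (16%) lower in decitabine-treated Tet1 KO YAP Tg than in YAP Tg livers. The change was at least 2-fold for 561 higher genes (4.18%) and 1021 lower genes (7.6%). Doubtful read recovery can only make a treated level too low. Without the genes it touches, 1989 were higher and 1250 lower of 10843 tested. The level matched YAP Tg within 2-fold for 8946 genes (66.6%), and 1506 of these were also called. The remaining 1290 genes were neither called nor narrow enough to count as a match. Fewer genes matched with the YAP Tg reads added together, and the matches named below are not marked for that fit. For orientation, untreated Tet1 KO YAP Tg livers were higher than YAP Tg livers for 38% and lower for 38.4% of 13507 genes, and treated livers were higher than untreated ones for 28.1% and lower for 23.8% of 13380 genes. These comparisons share libraries, so each is given only with its own values. The counts of every gene list below stand beside 19% higher, 16% lower and 66.6% matching over all genes tested.

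A group of very low genes in the treated libraries is described before the results because it touches many of them. The 3 treated libraries were deposited in another unit than the rest, and 505 tested genes (3.76%) lay at least 2-fold below all other groups there while those groups lay within 2-fold of each other. Gapdh, a glycolytic enzyme of every cell, had 1.35, 1.70 and 1.44 normalised reads in treated livers, 519, 522 and 530 in untreated Tet1 KO YAP Tg livers and 355, 358 and 329 in YAP Tg livers. Ppia, the cyclophilin A gene, had 2.06, 1.24 and 1.36 in treated livers and 574, 562 and 558 in YAP Tg livers. Both lay far below all 9 other libraries, and both calls held with the YAP Tg reads added together. The read recovery of both is in doubt. Among 80 genes of cytosolic ribosomal proteins, 59 were lower and 7 higher in treated than in YAP Tg livers, with a median log2 fold change of -2.20. Rps6, one of them, had 15.8, 9.35 and 10.7 in treated livers and 571, 578 and 560 in YAP Tg livers, a call that held with the YAP Tg reads added together. Counts of ribosomal protein genes are uncertain where reads can be split with near-identical copies. Of the 127 tested genes at least 8-fold lower in treated livers, 95 were low there alone by the definition above. No other group shares the treated libraries' unit, so an effect of decitabine and one of how these libraries were processed cannot be told apart here, and 504 of the 1021 genes lower by at least 2-fold belong to them. The opposite pattern, at least 2-fold above all other groups, held for 156 genes (1.16%) and has the same limit.

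The 10 called genes furthest above YAP Tg with sure read recovery and at least 5 normalised reads in either group were Serpina3c, Mir6236, Prn, Snord22, Snord15b, 2810007J24Rik, Ces3a, Cml2, Mir703 and Serpina3k, with log2 fold changes of 9.34 down to 3.31. The microRNA genes Mir6236 (7.12) and Mir703 (3.33), the small nucleolar RNA genes Snord22 (3.98) and Snord15b (3.70), and Prn (4.59) held with the YAP Tg reads added together. That fit does not bear on how the treated libraries were counted. Of the 18 tested genes at least 8-fold higher, 6 were high in treated livers alone. Among these 18, 38.9% overlapped another gene of the table, as did 37.8% of the 127 at least 8-fold lower and 20.8% of all genes tested. Mir6236 had 172, 625 and 63.8 in treated livers and 0.828, 1.31 and 0.583 in YAP Tg livers. The call of 2810007J24Rik (3.66), with 84.9, 7.09 and 2.35 in treated livers and 0.612, 0.344 and 0.474 in YAP Tg livers, was lost without YAP Tg library 1, 2 or 3 (adjusted p = 0.085, 0.0994 and 0.102). The 10 furthest below were 6820431F20Rik, Rps27rt, Prnp, Gm17821, Rps6, Gm10845, Ppp1cc, Idi1, Zfp488 and 4930470H14Rik, and all 10 calls held with the YAP Tg reads added together. Gm17821, Zfp488 and 4930470H14Rik were listed at 0 in all treated libraries, against 33.4 to 35.1, 14.7 to 16.1 and 11.8 to 14.1 normalised reads in YAP Tg livers. Prnp, the prion protein gene (chr2:131909928-131938436), lies within the row Prn (chr2:131909928-131956131) on the same strand, so reads can be split between both rows. Prnp had 1.07, 0.593 and 1.03 in treated livers, 137, 131 and 136 in untreated ones and 98.8, 102 and 101 in YAP Tg livers. Prn had 30.5, 22.5 and 33.4 in treated livers, 0.760, 0.908 and 0.586 in untreated ones and 0.720, 0.653 and 0.729 in YAP Tg livers. The row low in treated livers and the row high in them thus share their start.

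**Figure D1:**
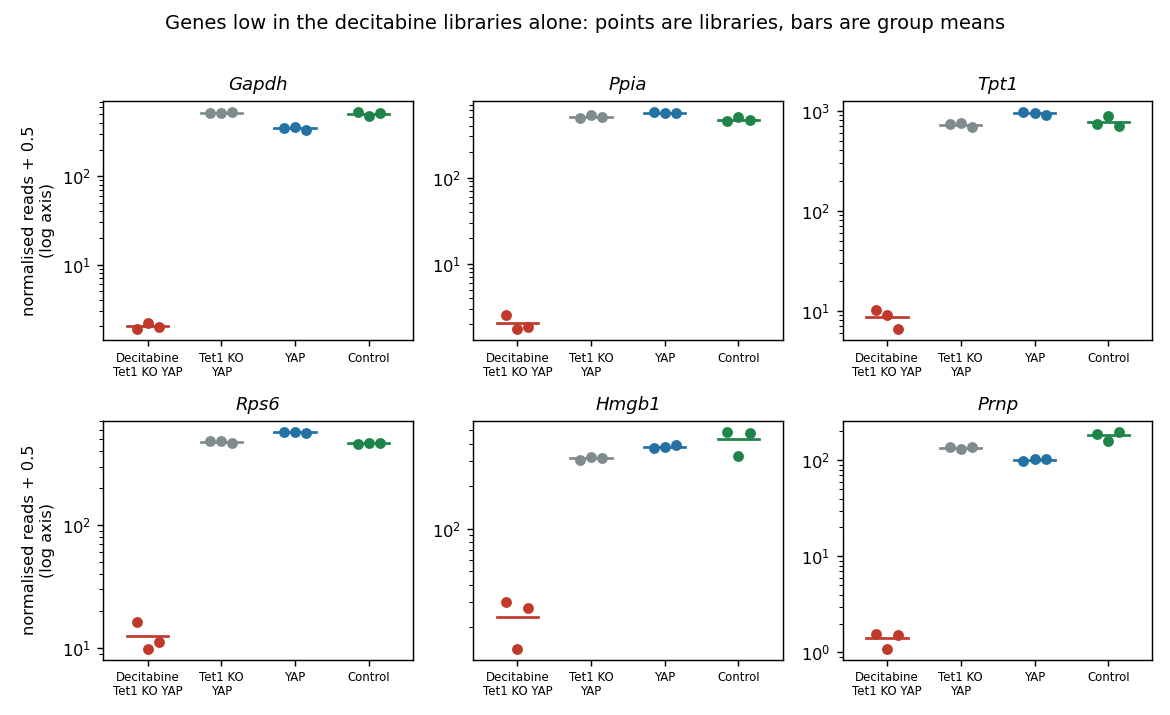
Normalised reads plus 0.5 (log axis) of 6 genes that were low in the decitabine-treated libraries alone. Points are libraries and bars are group means. The 3 treated libraries lie far below all 9 others in every panel, as for Gapdh at 1.35 to 1.70 in treated livers and 329 to 358 in YAP Tg livers.

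The tissue label held. Alb, the albumin gene, had 103986, 92489 and 110809 normalised reads in treated livers and 105383, 107807 and 106927 in YAP Tg livers, a match (log2 fold change -0.06, SE 0.31). Of 10 hepatocyte identity genes, 7 matched YAP Tg, 1 was higher and 2 were lower, and none was called without any 1 YAP Tg library. Tet1 itself was low in all groups: 1.60, 1.73 and 3.51 in treated livers, 1.25, 0.954 and 0.586 in untreated Tet1 KO YAP Tg livers and 9.90, 8.59 and 8.97 in YAP Tg livers. The treated level stayed below YAP Tg (log2 fold change -1.86, SE 0.25, adjusted p = 0.00154). Control livers, with the gene intact by label, averaged 0.682, so the level alone does not separate knockout from wild type. Yap1 had 88.1, 174 and 147 in treated livers, 48.5, 52.5 and 52.4 in untreated Tet1 KO YAP Tg livers, 27.6, 32.1 and 29.9 in YAP Tg livers and a mean of 54.8 in control livers. The Yap1 row was thus lower in YAP Tg than in control livers, and whether reads of the transgene fall in it is not given in the sources used here. Every treated liver exceeded every YAP Tg liver in that row (log2 fold change 2.12, SE 0.24, adjusted p = 0.000678). Yap1 is among the genes high in treated livers alone.

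The promoters of Cyr61, Ankrd1 and Vgll3 are shown because these 3 YAP and TEAD linked genes ended below, far below and at the YAP Tg level after decitabine. Each line gives 300 bases from RefSeq on GRCm38.p6, from 250 bases before to 50 bases after the annotated start, 5′ to 3′ on the gene's strand. Capitals mark the TEAD core motif GGAATG or its reverse complement CATTCC, searched on both strands. Cyr61 (Ccn1 in RefSeq) is at chr3:145649936-145650235 on the minus strand, Ankrd1 at chr19:36119795-36120094 on the minus strand, and Vgll3 at chr16:65814939-65815238 on the plus strand.
Cyr61: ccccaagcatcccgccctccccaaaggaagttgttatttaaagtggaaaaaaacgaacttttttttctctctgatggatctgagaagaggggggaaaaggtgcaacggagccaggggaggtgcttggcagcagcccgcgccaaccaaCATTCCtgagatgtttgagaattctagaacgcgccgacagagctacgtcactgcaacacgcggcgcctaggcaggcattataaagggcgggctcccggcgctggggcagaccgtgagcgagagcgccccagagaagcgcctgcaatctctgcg
Ankrd1: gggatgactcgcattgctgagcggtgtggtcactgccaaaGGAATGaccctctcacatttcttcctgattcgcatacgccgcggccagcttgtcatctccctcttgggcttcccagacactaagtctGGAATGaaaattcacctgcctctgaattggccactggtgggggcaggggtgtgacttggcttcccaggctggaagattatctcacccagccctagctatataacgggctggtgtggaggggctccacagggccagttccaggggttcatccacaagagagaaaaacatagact
Vgll3: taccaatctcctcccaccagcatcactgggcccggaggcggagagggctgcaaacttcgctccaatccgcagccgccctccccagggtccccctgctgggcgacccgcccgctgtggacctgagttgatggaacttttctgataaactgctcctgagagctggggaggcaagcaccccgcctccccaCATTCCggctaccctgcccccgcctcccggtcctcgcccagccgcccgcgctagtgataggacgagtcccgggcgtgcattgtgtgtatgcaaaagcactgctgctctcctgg
The motif begins 103 bases before the start in Cyr61, 210 and 123 bases before it in Ankrd1, and 63 bases before it in Vgll3. Among 32851 RefSeq promoters of the same length, 14.7% hold at least 1 such motif and 1.36% at least 2, and a match is a description of these letters only.

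The 6 called YAP and TEAD target genes lay below YAP Tg livers. Of 23 tested targets, 6 were lower, 0 were higher and 15 matched within 2-fold, against 16%, 19% and 66.6% of all genes tested, so the matching share was that of all genes. Their median log2 fold change was -0.15 in treated livers, beside 0.09 for all genes, and -1.29 in untreated Tet1 KO YAP Tg livers. Ctgf, a matricellular growth factor that is the standard readout of YAP, had 96.0, 153 and 159 normalised reads in treated livers, 22.8, 22.4 and 22.1 in untreated ones and 144, 148 and 151 in YAP Tg livers. Treated livers 2 and 3 reached or passed the YAP Tg range and treated liver 1 did not, and the level matched (log2 fold change -0.15, 95% interval -0.61 to 0.30). Ctgf lies at chr10:24595442-24598682. Vgll3, a TEAD cofactor, had 21.8, 54.8 and 41.6 in treated livers, 0.224, 0.227 and 0.0533 in untreated ones and 39.7, 38.2 and 41.7 in YAP Tg livers. Treated and YAP Tg livers overlapped, and the untreated ones stood apart from both. Amotl2 (log2 fold change 0.36), Ajuba (-0.17) and Axl (0.28), which encode an angiomotin scaffold, a LIM adaptor and a receptor kinase, also matched, as did the mitotic survival gene Birc5 (0.13).

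Cyr61, a matricellular relative of Ctgf, had 17.3, 37.3 and 39.4 in treated livers, 18.3, 16.5 and 16.5 in untreated ones and 62.6, 62.1 and 67.4 in YAP Tg livers. All 3 treated livers lay below all YAP Tg livers, and treated liver 1 lay within the untreated range. The log2 fold change was -1.11 (SE 0.29, adjusted p = 0.0231), and the call was lost without YAP Tg library 1, 2 or 3 (adjusted p = 0.0708, 0.0712 and 0.0875). Ankrd1, a nuclear ankyrin-repeat protein, had 1.28, 3.23 and 10.4 in treated livers, 0.715, 0.636 and 0.586 in untreated ones and 61.8, 65.7 and 65.6 in YAP Tg livers. Every treated liver lay above the untreated livers and far below the YAP Tg livers (log2 fold change -3.96, SE 0.57, adjusted p = 0.0019). Tgfb2, a TGF-beta ligand, was also lower (-2.11, adjusted p = 0.00562), and F3, tissue factor, lay below even the untreated livers. F3 had 1.95, 1.64 and 2.60 in treated livers, 5.37, 5.63 and 6.56 in untreated ones and 15.1, 15.5 and 14.3 in YAP Tg livers, and its call held with the YAP Tg reads added together. The read recovery of F3 is in doubt, which can only make its treated level too low, and F3 has the same limit as the genes low in treated livers alone. Igfbp3, which binds insulin-like growth factors, was lower as well (-1.17) but belongs to the genes low in treated livers alone, since untreated livers averaged 42.2 and YAP Tg livers 40.4. Of the 6 calls, 5 held in every fit without 1 library, and 2 other targets were called higher without treated library 1.

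**Figure D2:**
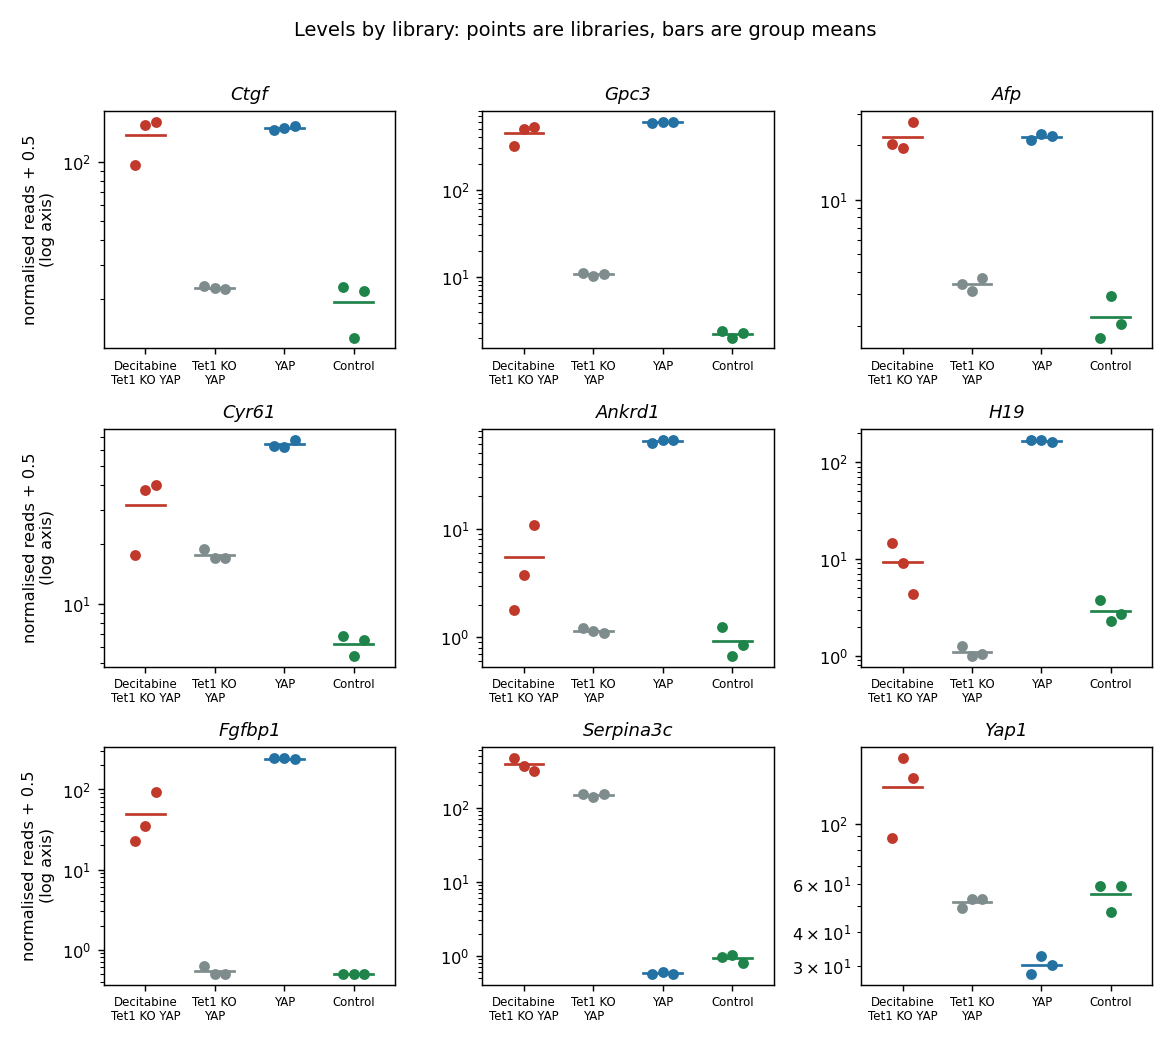
Normalised reads plus 0.5 (log axis) in each library of the 4 groups, with bars at the group means. Ctgf, Gpc3 and Afp of treated livers lie near YAP Tg, while Cyr61, Ankrd1, H19 and Fgfbp1 lie below it and Serpina3c and Yap1 above it.

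Among 21 Hippo pathway components, 14 matched YAP Tg, 3 were higher and 4 were lower, with a median of 0.17, shares near those of all genes tested. Without treated library 1, 7 were higher, and without any 1 YAP Tg library 2 were. Tead4, a TEAD factor, had 3.12, 4.50 and 5.24 in treated livers, 0.537, 0.727 and 0.640 in untreated ones and 11.3, 11.1 and 10.6 in YAP Tg livers. It lay between the 2 groups without overlap (log2 fold change -1.29, SE 0.19, adjusted p = 0.00203), with its read recovery in doubt. Wwtr1, which encodes the YAP paralogue TAZ, was lower by less than 2-fold (-0.64, adjusted p = 0.00496). Lats2, the kinase that phosphorylates YAP, matched (0.13).

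Oncofetal genes, which are active in fetal liver and silent in the adult, lay below the YAP Tg level for most members. Of 13 tested, 8 were lower, 1 was higher and 3 matched, against 16%, 19% and 66.6% of all genes tested. Of the 8 lower calls, 6 held in every fit without 1 library and 1 with the YAP Tg reads added together. The median log2 fold change was -0.96 in treated livers and -2.71 in untreated ones. H19, an imprinted noncoding RNA of fetal liver at chr7:142575532-142578146, had 14.2, 8.49 and 3.88 in treated livers, 0.760, 0.500 and 0.533 in untreated ones and 170, 168 and 161 in YAP Tg livers. The treated livers were above all untreated ones and more than 10-fold below every YAP Tg liver (log2 fold change -4.32, SE 0.38, adjusted p = 0.000206), and the call held with the YAP Tg reads added together. Peg3, another imprinted gene, had 14.0, 26.8 and 46.2 in treated livers, 6.71, 6.59 and 4.11 in untreated ones and 101, 103 and 101 in YAP Tg livers (log2 fold change -1.95, adjusted p = 0.00618). Sox4 (-2.07), a progenitor transcription factor, Igf2bp3 (-1.04), a fetal RNA-binding protein, and Akr1b7 (-1.89), an aldo-keto reductase whose read recovery is in doubt, were lower too. Gpc3 and Afp, the classical fetal liver and liver cancer markers, were not called below YAP Tg. Gpc3, a cell surface proteoglycan, had 321, 500 and 524 in treated livers, 10.7, 9.72 and 10.2 in untreated ones and 588, 599 and 603 in YAP Tg livers. Its treated livers all lay below the YAP Tg livers without a call (log2 fold change -0.45, SE 0.19, adjusted p = 0.11). Afp, alpha-fetoprotein, had 19.8, 18.8 and 26.5 in treated livers, 2.91, 2.63 and 3.20 in untreated ones and 20.8, 22.6 and 22.0 in YAP Tg livers, and matched (-0.02, 95% interval -0.38 to 0.33). Ly6d, a surface antigen, went past YAP Tg, with 53, 25.6 and 47.0 in treated livers and 9.86, 8.93 and 8.53 in YAP Tg livers (log2 fold change 2.08, adjusted p = 0.00107).

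The wider set of genes that mark the YAP state was taken as those at least 4-fold different between untreated Tet1 KO YAP Tg and YAP Tg livers, called, and with a mean of 5 normalised reads in either group. The YAP Tg libraries stand on both sides of this choice, so the counts describe where treated livers lay and are no test. Genes low or high in treated livers alone were defined with the other groups within 2-fold, so no gene chosen here can be marked as such. Decitabine and the processing of the treated libraries cannot be told apart for these genes either. Of 366 genes higher in YAP Tg, 134 (36.6%) were lower in treated than in YAP Tg livers and 46 (12.6%) were higher. A match held for 160 (43.7%), some of them also called, and 60 were neither called nor matching. Over all genes tested 16% were lower, 19% were higher and 66.6% matched. Read recovery was in doubt for 86 of the 366, which can only make their treated level too low. The lower count was 86, 87 and 88 without YAP Tg library 1, 2 or 3 and 143 to 168 without 1 treated library, and 85 of the 134 calls held in all of them. The 46 higher became 26 without any 1 YAP Tg library and 61, 66 and 46 without treated library 1, 2 or 3. Of 244 genes lower in YAP Tg, 112 (45.9%) were higher in treated than in YAP Tg livers and 15 (6.15%) were lower still. A match held for 66 (27.0%), some of them also called, and 60 were neither called nor matching. Read recovery was in doubt for 62 of the 244. The higher count was 77, 76 and 72 without YAP Tg library 1, 2 or 3 and 116 to 133 without 1 treated library, and the 15 lower became 8 without any 1 YAP Tg library and 35, 12 and 10 without treated library 1, 2 or 3. Calling the untreated Tet1 KO YAP Tg level 0% and the YAP Tg level 100% on the log2 scale, the median raised gene stood at 77.7% in treated liver 1, 84.7% in treated liver 2 and 95.4% in treated liver 3. The median lowered gene stood at 62.0%, 80.3% and 86.7% in the same livers. Treated liver 1 thus lay furthest from YAP Tg and treated liver 3 nearest in both sets, and the quartiles of the raised set spanned 51.7% to 108% in liver 1 and 75.8% to 111% in liver 3.

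**Figure D3:**
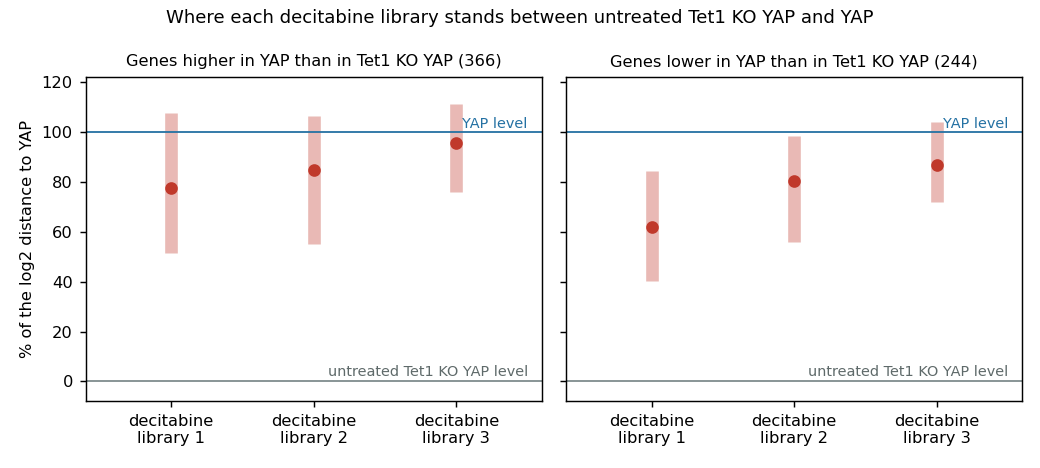
Position of each decitabine-treated library between untreated Tet1 KO YAP Tg (0%) and YAP Tg (100%) on the log2 scale. Points are medians and bars are quartiles over 366 genes higher and 244 genes lower in YAP Tg, and the medians run between 62.0% and 95.4%.

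Among genes that YAP Tg livers raised and treated livers did not reach, Vldlr, the very low density lipoprotein receptor, had 2.31, 2.59 and 4.79 in treated livers, 1.61, 1.54 and 0.960 in untreated ones and 36.2, 35.9 and 37.8 in YAP Tg livers (log2 fold change -3.37, adjusted p = 6.16e-05). Vnn1, a pantetheinase, had 34.8, 30.1 and 23.8 in treated livers, 8.0, 8.49 and 8.53 in untreated ones and 144, 146 and 152 in YAP Tg livers (-2.31, adjusted p = 3.85e-05). Rbm3, a cold-inducible RNA-binding protein, had 16.3, 16.3 and 23.4 in treated livers, 42.3, 43.9 and 42.4 in untreated ones and 222, 220 and 233 in YAP Tg livers. Its treated level lay below untreated as well as YAP Tg livers (-3.58, adjusted p = 4.53e-06). Rbm3 thus has the same limit as the genes low in treated livers alone. The calls of Vldlr, Vnn1 and Rbm3 held with the YAP Tg reads added together. So did those of Id1 (-2.86), an inhibitor of DNA-binding proteins, Ndrg1 (-2.76), a stress response gene, and Mt2 (-1.93), a metallothionein, and the read recovery of these 3 is in doubt. Fgfbp1, which releases fibroblast growth factors from matrix, showed partial return: 22.1, 34.6 and 91.9 in treated livers, 0.134, 0 and 0 in untreated ones and 248, 244 and 237 in YAP Tg livers (-2.54, adjusted p = 0.00466). It was listed at 0 in control livers, and its read recovery is in doubt.

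Matches among the raised genes included Spp1, osteopontin, with 1651, 840 and 2665 in treated livers, 321, 317 and 304 in untreated ones and 1655, 1679 and 1652 in YAP Tg livers. Its mean matched, while its 3 treated livers spread on both sides of YAP Tg. Ccnd1, the G1 cyclin D1, had 162, 255 and 223 in treated livers, 31.3, 29.3 and 27.9 in untreated ones and 198, 203 and 204 in YAP Tg livers (0.06, 95% interval -0.34 to 0.45). Gadd45b, a stress-induced growth regulator, had 40.3, 49.0 and 30.8 in treated livers and 34.6, 33.1 and 34.3 in YAP Tg livers, against 2.55, 2.09 and 1.76 in untreated ones. Lpl, lipoprotein lipase, matched too (-0.35).

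Most calls among proliferation genes were above YAP Tg. Of 24 DNA replication genes, 14 were higher in treated than in YAP Tg livers, 1 was lower and 10 matched. Over all genes tested the shares were 19%, 16% and 66.6%. The median log2 fold change of the replication genes was 0.62, beside -0.57 in untreated livers. Mcm2, a subunit of the replicative helicase, had 23.8, 23.8 and 16.8 in treated livers, 5.99, 5.86 and 5.17 in untreated ones and 7.45, 8.87 and 7.07 in YAP Tg livers (log2 fold change 1.39, SE 0.18, adjusted p = 0.00109). Mcm2 is among the genes high in treated livers alone. Mcm3 (1.20), Mcm5 (1.17), Mcm6 (0.95) and Mcm4 (0.83) of the same helicase were higher, and Mcm7 matched (0.17). Pcna, the sliding clamp, was the 1 lower gene (-1.07, adjusted p = 0.00185), with its read recovery in doubt. Of 24 mitosis genes, 10 were higher, 0 were lower and 15 matched, with a median of 0.50, beside -1.79 in untreated livers. Top2a, the topoisomerase of dividing cells, had 137, 82.0 and 94.8 in treated livers, 16.0, 16.6 and 15.6 in untreated ones and 50.7, 48.2 and 53.7 in YAP Tg livers (1.00, adjusted p = 0.00604). Mki67, the proliferation antigen Ki-67, had 183, 155 and 154 in treated livers, 32.2, 31.1 and 30.9 in untreated ones and 113, 112 and 110 in YAP Tg livers (0.55, adjusted p = 0.00779). Without YAP Tg library 1, 2 or 3, the higher replication genes numbered 8 each time and the higher mitosis genes 6, 4 and 5, and without treated library 2 the mitosis genes numbered 16. None of these calls held with the YAP Tg reads added together. Of 20 p53 target genes, 14 matched, 5 were lower and 0 were higher (median 0.00), with 3 lower without any 1 YAP Tg library and 2 and 3 higher without treated library 1 or 2. The cell cycle inhibitor Cdkn1a had 16.7, 38.0 and 15.8 in treated livers and 14.3, 15.4 and 16.3 in YAP Tg livers without a call.

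The 9 calls among macrophage genes were above YAP Tg. The 18 Kupffer cell and macrophage genes had 9 higher, 0 lower and 11 matching members, against 19%, 16% and 66.6% of all genes tested. Their median was 0.55 in treated livers and -2.0 in untreated ones. Their summed level was 5853, 5463 and 4984 normalised reads in treated livers, 962 to 992 in untreated ones and 3469 to 3539 in YAP Tg livers. The treated sums lay above all YAP Tg sums. Emr1, which encodes the macrophage surface protein F4/80, had 409, 287 and 264 in treated livers, 35.1, 33.6 and 33.0 in untreated ones and 101, 106 and 106 in YAP Tg livers (log2 fold change 1.58, SE 0.17, adjusted p = 0.000543). Cd5l, a secreted macrophage protein, had 1589, 1181 and 987 in treated livers, 139, 132 and 130 in untreated ones and 634, 634 and 619 in YAP Tg livers (0.96, adjusted p = 0.00598). Cd53, Cd86 and Capg, of leukocyte membranes and macrophage actin, were higher as well (1.04, 0.99 and 1.05). Clec4f (-0.32), a Kupffer cell lectin, and Vsig4 (0.20), a complement receptor, matched, both with their read recovery in doubt. In whole liver, more cells of a type and more RNA per cell cannot be told apart. Of the 9 calls, 6 held in every fit without 1 library and 0 with the YAP Tg reads added together.

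Of 14 neutrophil genes tested, 1 was higher, 3 were lower and 2 matched, against 19%, 16% and 66.6% of all genes tested. The median was -0.57, and 8 were lower without treated library 3. Read recovery was in doubt for 8 of the 14 genes, which can only make their treated levels too low. Their summed level was 71.1, 64.2 and 194 in treated livers and 109 to 114 in YAP Tg livers, so the groups overlapped. Mmp9, a matrix metalloproteinase made by several leukocytes, was the higher one, with 12.7, 32.9 and 20.4 in treated livers, 0.626, 0.363 and 0 in untreated ones and 5.90, 5.84 and 5.76 in YAP Tg livers (1.73, adjusted p = 0.00466). The neutrophil alarmin S100a8 had 7.10, 1.24 and 14.1 in treated livers and 4.93, 4.60 and 5.10 in YAP Tg livers, without a call. Markers of other cell types were called in both directions. Lymphocyte genes had 1 higher and 8 matching of 11, endothelial genes 4 higher, 3 lower and 9 matching of 16, and stellate cell and matrix genes 1 higher, 1 lower and 11 matching of 18. Without treated library 1, 9 endothelial and 8 stellate cell genes were higher, and without any 1 YAP Tg library 2 endothelial genes were. The higher lymphocyte call and the lower stellate cell call did not hold in every fit without 1 library. Kdr, the VEGF receptor of endothelium, was lower (-1.80, adjusted p = 0.00066) and is another gene low in treated livers alone, with 24.1, 42.5 and 38.1 there, 101, 109 and 109 in untreated livers and 118, 119 and 121 in YAP Tg livers. Stab2, a scavenger receptor of liver sinusoids, matched (0.26), and Lyve1, of the same cells, was higher (1.36, adjusted p = 0.00744). Cholangiocyte and progenitor markers had 1 higher, 2 lower and 6 matching of 11. Sox9, the bile duct transcription factor, had 7.88, 17.2 and 15.4 in treated livers and 10.8, 10.2 and 10.1 in YAP Tg livers and matched.

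Interferon-stimulated genes were the list furthest above YAP Tg by median among those with at least 8 tested genes. Of 22 tested, 16 were higher, 1 was lower and 4 matched, with a median of 1.00, beside -0.12 in untreated livers and 0.09 for all genes tested. Their summed level was 1451, 1143 and 911 in treated livers, 720 to 732 in untreated ones and 707 to 730 in YAP Tg livers. Oas3, an oligoadenylate synthetase that senses double-stranded RNA, had 25.6, 38.8 and 17.1 in treated livers, 3.26, 3.82 and 4.32 in untreated ones and 5.40, 6.08 and 6.16 in YAP Tg livers (log2 fold change 2.04, SE 0.27, adjusted p = 0.00137). Oas1a (1.73) and Oas2 (1.64) of the same family were higher, as were Irf7 (0.80), a transcription factor of the interferon response, and the ubiquitin-like modifier Isg15 (1.36). Isg15 had 10.4, 18.5 and 11.8 in treated livers, 7.20, 3.77 and 5.39 in untreated ones and 4.50, 5.33 and 4.67 in YAP Tg livers. Ifit1, a further interferon target, matched with 92.9, 51.3 and 57.5 in treated livers and 65.1, 66.7 and 66.5 in YAP Tg livers. Oasl2 was the 1 lower member (-0.91), with its read recovery in doubt. Of the 16 calls, 11 held in every fit without 1 library, and none held with the YAP Tg reads added together. Without the 7 members that were high in treated livers alone, the list's median was 0.75. The Kupffer cell sum was higher in the same libraries, and its part in the interferon counts was not tested.

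**Figure D4:**
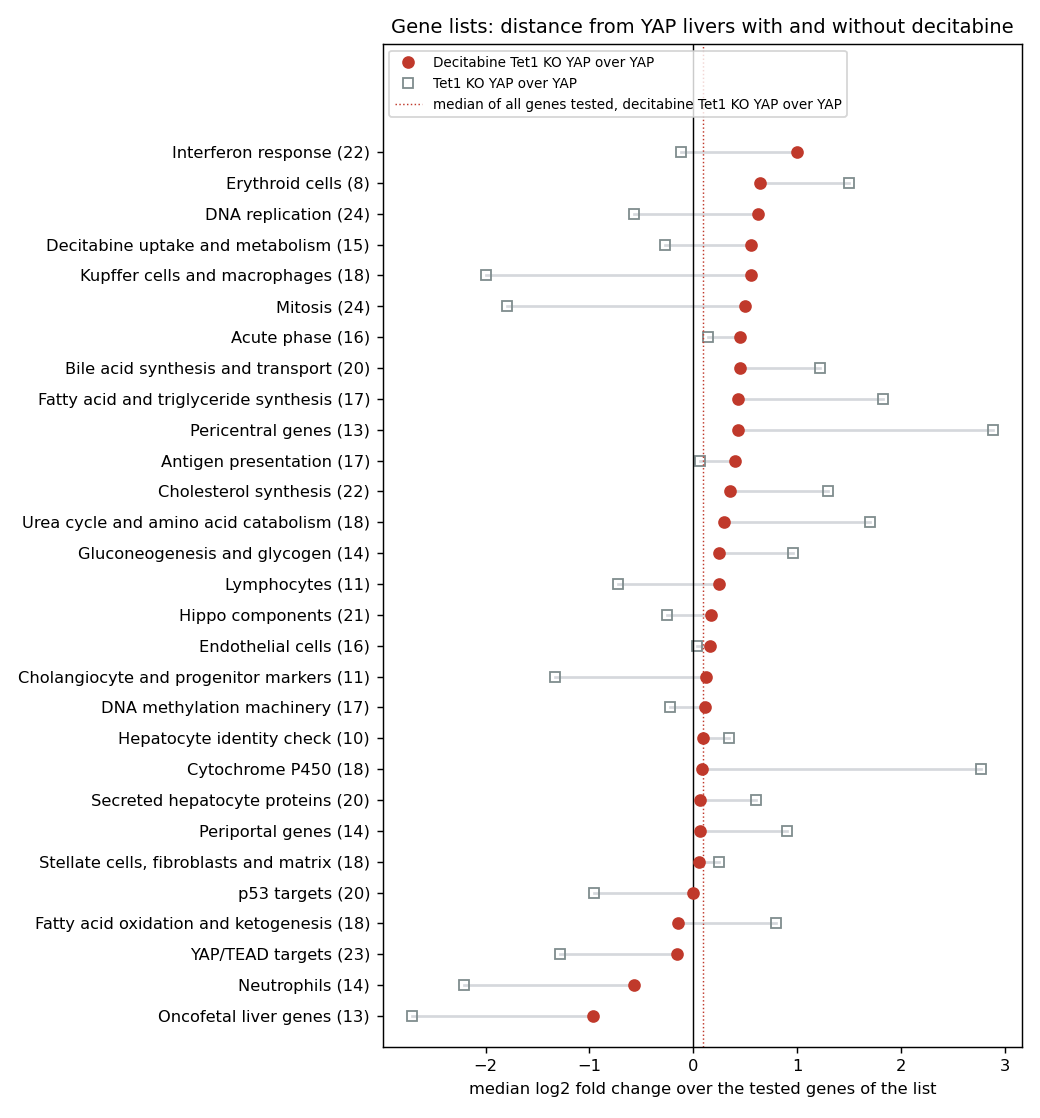
Median log2 fold change over YAP Tg for each gene list with at least 8 tested genes, with the number of tested genes in brackets. Filled points are decitabine-treated livers and open squares untreated Tet1 KO YAP Tg livers, and the dotted line is the median of all genes tested (0.09). Oncofetal genes lie lowest at -0.96 and interferon genes highest at 1.00.

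Genes that handle decitabine itself leaned upward: of 15 tested, 9 were higher, 0 were lower and 6 matched (median 0.55). Over all genes tested the shares were 19%, 16% and 66.6%. Without YAP Tg library 1, 2 or 3, 5 were higher each time. Dck, the kinase that activates the drug, had 31.4, 27.5 and 17.8 in treated livers, 9.43, 8.31 and 8.74 in untreated ones and 11.8, 10.7 and 12.6 in YAP Tg livers (1.06, adjusted p = 0.00747). The nucleoside transporters Slc28a2 (1.77, adjusted p = 0.000298) and Slc29a1 (0.97, adjusted p = 0.000701) and the nucleotide hydrolase Samhd1 (1.02, adjusted p = 0.00129) were higher, and the deaminase gene Cda matched (-0.22, read recovery in doubt). Dck and Samhd1 are among the genes high in treated livers alone. Among 17 genes of the DNA methylation machinery, 10 matched, 3 were higher and 2 were lower (median 0.11), and 1, 0 and 0 were higher without YAP Tg library 1, 2 or 3. Dnmt1, the maintenance methyltransferase that decitabine traps, had 35.1, 52.8 and 39.4 in treated livers, 20.6, 19.7 and 19.9 in untreated ones and 30.1, 29.0 and 29.1 in YAP Tg livers. It was called at 0.50 (adjusted p = 0.0451), a call lost without treated library 3 (0.0718) or YAP Tg library 1, 2 or 3 (0.126, 0.142 and 0.138). Dnmt3a (0.28), Dnmt3b (0.11) and Tet2 (0.06) matched, and Tet3 was neither called nor matching. Tdg, the glycosylase that removes oxidised methylcytosine, had 1.85, 2.40 and 1.73 in treated livers, 14.8, 15.4 and 14.3 in untreated ones and 15.4, 17.0 and 16.8 in YAP Tg livers, and is one of the genes low in treated livers alone (-2.77, held with the YAP Tg reads added together). Of 15 germline genes known to be silenced by DNA methylation and present in the table, 2 passed the filter on low values, Xlr3a, without a call, and Brdt. Brdt, which is among the genes low in treated livers alone, was lower (-1.30), with 0.568, 0.377 and 0.454 in treated livers and 2.12, 1.99 and 1.53 in YAP Tg livers.

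Among single hepatocyte genes that were low in YAP Tg livers, some were higher in treated livers. Serpina3c, a serine protease inhibitor at chr12:104146907-104153872, was the most extreme gene and lay outside the range between the 2 untreated groups. It had 468, 362 and 313 normalised reads in treated livers, 153, 138 and 154 in untreated ones and 0.0720, 0.103 and 0.0729 in YAP Tg livers (log2 fold change 9.34, SE 0.17, adjusted p = 1.32e-07, held with the YAP Tg reads added together). YAP Tg livers had at most 3 reads per library of this gene and control livers averaged 0.433, so the size of the fold depends on the added 0.5. Its relative Serpina3k had 15616, 6090 and 4867 in treated livers, 25977, 24237 and 24220 in untreated ones and 767, 787 and 784 in YAP Tg livers (3.31, adjusted p = 0.000892). Both belong to a cluster of close paralogues, which makes their counts uncertain. Cml2, an acetyltransferase-like gene, and Serpina5, another protease inhibitor, also stayed up and held with the YAP Tg reads added together (3.42 and 3.02).

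The same held for single transport and lipid genes of hepatocytes. Slco1a1, a bile acid and drug uptake carrier, had 202, 64.6 and 45.1 in treated livers, 748, 773 and 785 in untreated ones and 8.64, 8.01 and 9.44 in YAP Tg livers (3.20, adjusted p = 0.00248). Ces3a, a carboxylesterase, had 201, 127 and 24.1 in treated livers, 1358, 1275 and 1340 in untreated ones and 6.55, 6.12 and 6.23 in YAP Tg livers (3.66, adjusted p = 0.00581). In both genes the treated livers lay between the other groups without overlap, and treated liver 1 lay nearest to the untreated level. Of 17 fatty acid and triglyceride synthesis genes, 9 were higher, 0 were lower and 12 matched, against 19%, 16% and 66.6% of all genes tested. Their median was 0.43 in treated and 1.83 in untreated livers. Elovl6, a fatty acid elongase, had 115, 76.9 and 63.5 in treated livers, 223, 215 and 227 in untreated ones and 25.7, 25.7 and 26.5 in YAP Tg livers (1.65, adjusted p = 0.00108). Fasn, fatty acid synthase, was higher (1.13, adjusted p = 0.00846), and Scd1, the stearoyl desaturase, matched with 2280, 1126 and 1139 in treated livers, 13316, 13676 and 14085 in untreated ones and 1138, 1134 and 1166 in YAP Tg livers. Of 18 fatty acid oxidation genes, 16 matched, 7 were lower, 1 was higher and the median was -0.15, and 3, 3 and 2 were lower without YAP Tg library 1, 2 or 3. The oxidation regulator Ppara was lower within the 2-fold window (-0.71, adjusted p = 0.00289), and Hadhb was lower (-1.76) as a gene low in treated livers alone.

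**Figure D5:**
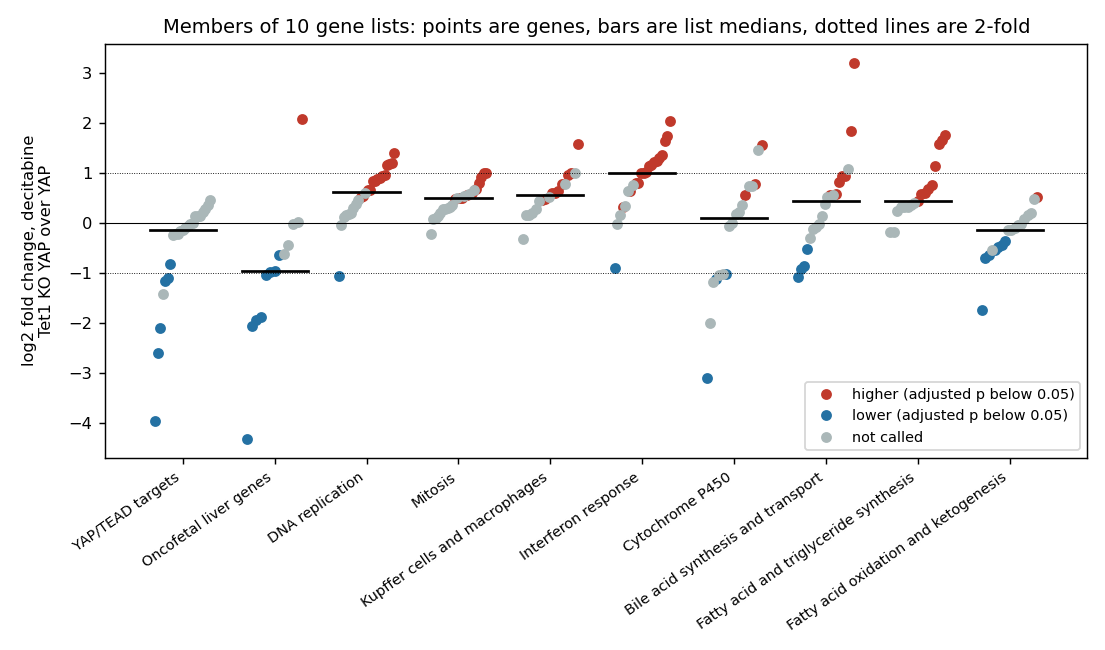
Log2 fold change (decitabine-treated Tet1 KO YAP Tg over YAP Tg) of each tested member of 10 gene lists. Colours give the call, bars the list medians and dotted lines a 2-fold difference. Interferon, replication and mitosis members lie mostly above 0, and Ankrd1 and H19 are the lowest points of the YAP/TEAD and oncofetal lists.

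The drug-metabolising cytochrome P450 genes lay near the YAP Tg level by median and far from the untreated one, but few members matched YAP Tg. Of 18 tested, 3 were higher, 3 were lower and 4 matched, against 19%, 16% and 66.6% of all genes tested. Their log2 fold changes ran from -3.11 to 1.55 with a median of 0.09, beside a median of 2.76 in untreated livers. The lower ones numbered 1 without any 1 YAP Tg library and 7 without treated library 1. Cyp2e1, an ethanol-oxidising enzyme of hepatocytes around the central vein, had 132, 125 and 34.8 in treated livers, 4557, 4641 and 4787 in untreated ones and 84.3, 79.2 and 86.4 in YAP Tg livers. It lay on both sides of YAP Tg and far from the untreated level, with an interval too wide for a match (0.00, 95% interval -1.09 to 1.09) and its read recovery in doubt. Cyp2b9, an enzyme YAP Tg livers had at a raised level, was lower, with 3.09, 0.970 and 2.60 in treated livers and 22.1, 22.0 and 20.3 in YAP Tg livers (-3.11, adjusted p = 0.000417). Cyp2f2, of periportal hepatocytes, was higher, with 282, 260 and 157 in treated livers, 992, 980 and 1005 in untreated ones and 78.0, 76.2 and 76.3 in YAP Tg livers (1.55, adjusted p = 0.0016). Of 13 pericentral genes, 3 were higher, 2 were lower and 5 matched (median 0.43, beside 2.89 in untreated livers), with 6, 5 and 5 higher without treated library 1, 2 or 3. Glul, the pericentral glutamine synthetase, matched with 67.4, 88.7 and 76.1 in treated livers, 547, 536 and 547 in untreated ones and 73.3, 72.3 and 73.2 in YAP Tg livers. Oat, ornithine aminotransferase of the same zone, stayed higher (1.02, adjusted p = 0.00619).

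Some hepatocyte genes went below YAP Tg. Upp2, a uridine phosphorylase, had 15.1, 6.69 and 8.84 in treated livers, 271, 283 and 301 in untreated ones and 34.7, 35.1 and 34.7 in YAP Tg livers (-1.80, adjusted p = 0.00199). Ass1, of the urea cycle, had 213, 212 and 113 in treated livers, 1977, 1888 and 1978 in untreated ones and 401, 403 and 387 in YAP Tg livers (-1.21, adjusted p = 0.00773). Both fell under YAP Tg in every treated liver. Among 18 urea cycle and amino acid genes, 5 were higher, 1 was lower and 10 matched (median 0.29), with 1 higher without any 1 YAP Tg library, and Arg1, arginase, was a match (-0.01, read recovery in doubt). Gluconeogenesis and glycogen genes had 4 higher, 0 lower and 9 matching of 14. Among the higher ones Fbp1, fructose bisphosphatase, had 1839, 1183 and 813 in treated livers, 481, 469 and 481 in untreated ones and 398, 388 and 388 in YAP Tg livers (1.63, adjusted p = 0.00352), above every other group. Of 20 bile acid genes, 7 were higher, 4 were lower and 10 matched, with 4 higher and 2 lower without any 1 YAP Tg library. Cyp7a1, the rate-limiting enzyme of bile acid synthesis, was among the matches, with 75.9, 74.6 and 141 in treated livers and 91.6, 95.4 and 96.5 in YAP Tg livers (-0.03, 95% interval -0.58 to 0.53). Of 22 cholesterol synthesis genes, 4 were higher, 5 were lower and 11 matched, against 19%, 16% and 66.6% of all genes tested. The higher ones numbered 0 without any 1 YAP Tg library and 10 without treated library 2, and the lower ones 3, 4 and 3 without YAP Tg library 1, 2 or 3. Idi1, an isomerase of that pathway, had 3.87, 1.70 and 2.56 in treated livers, 345, 359 and 354 in untreated ones and 108, 108 and 112 in YAP Tg livers. Its call (-5.15) held with the YAP Tg reads added together and has the same limit as the genes low in treated livers alone, since the treated level lay far below all other groups.

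Of 20 secreted hepatocyte proteins, 15 matched, 1 was higher and 2 were lower (median 0.06), beside 66.6% matching over all genes tested. None was called without any 1 YAP Tg library, 5 were lower without treated library 1 and 4 were higher without treated library 2. Read recovery was in doubt for 10 of the 20. Of 16 acute phase genes, 8 matched, 5 were higher and 1 was lower (median 0.45), with read recovery in doubt for 9 of the 16. The higher ones numbered 3, 2 and 2 without YAP Tg library 1, 2 or 3. The lower one was Socs3, the feedback inhibitor of cytokine signalling, with 9.20, 15.7 and 15.2 in treated livers and 35.5, 36.6 and 33.6 in YAP Tg livers (-1.40, adjusted p = 0.00209). Of 20 major urinary protein genes in the table, which encode pheromone carriers and are near-identical copies of each other, 3 passed the filter and 2 were higher. Mup3 had 3450, 1154 and 398 in treated livers, 8860, 9068 and 9039 in untreated ones and 49.7, 48.4 and 50.9 in YAP Tg livers (4.54, adjusted p = 0.00208). How reads of the copies were assigned is uncertain, and the read recovery of Mup3 is in doubt.

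The authors' deposited table of the same comparison gives log2 values as YAP Tg over decitabine-treated. It lists 4.27 for H19, 3.09 for Ankrd1, 0.66 for Cyr61, 0.01 for Ctgf and -11.4 for Serpina3c in that direction. The sign, once turned round, was the same as in the fit used here for 65.2% of the 13429 genes. That share takes in the 8730 genes not called here, and it was not counted for the called genes alone.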

How the data were processed

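Per the submitters' processing notes the reads were aligned to mm10 with TopHat2, counted with featureCounts and handled with edgeR, with no versions given. In the deposited table of the 12 RNA libraries, per the file headers and values, the 9 libraries without decitabine are a signal of reads scaled to library size and composition, and the 3 decitabine libraries are TPM. Whole reads were recovered from both: each of the 9 columns holds whole multiples of what 1 read is worth, and in the TPM columns the smallest whole gene length that makes all 3 values whole (within 0.0001 reads, growing with the count) gave whole reads for 17094 of 17105 genes (99.9%), with 11 not recovered. On 545 genes with 1 exon the recovered length was right for 93.2% and too small by a whole factor for 6.79%. Read recovery is called in doubt where that risk was over 10%, which can only make a decitabine level too low.

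Recovered reads were scaled with TMM factors (edgeR 4.0.16) and tested with limma 3.58.1 (R 4.3.3, intensity trend, two-sided) on log2(normalised reads + 0.5), over genes with at least 0.5 normalised reads in 3 libraries and only the 6 libraries compared. P-values were adjusted after Benjamini and Hochberg over all genes tested. A fold change on this scale understates the change of low genes. The deposited table of comparisons also holds the authors' log2 fold change, p-value and test statistic score; of these only the log2 fold changes are printed. Gene symbols were matched to RefSeq on GRCm38.p6: 17473 by symbol, 1026 by synonym and 92 not at all. Tested on simulated data for this comparison (13324 genes), a 4-fold change was called for 100% of genes, a 2-fold rise for 62%, a 2-fold fall for 46% and no change for 0.0305%. The simulation took the YAP Tg libraries as separate replicates, drew the noise of each gene independently and changed few genes. It therefore cannot show how many calls are false if those libraries are technical repeats.

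The members, gene lists and tests were chosen with earlier results of these data known. Genes are named by rule (11 always named, the 10 highest and 10 lowest called genes with sure recovery, and per list the 2 highest, 2 lowest and closest matching member), and every other gene was chosen after its values were seen. Only some of the genes this rule gives are named in the text, and 2 of them are not reported here. The numbers of the replicates did not pair the libraries. Methylation and ChIP samples (24) were not used here.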

Additional observations from a re-analysis of the deposited data

How the results depend on the processing

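Alternatives are given as genes higher, lower and matching, against 2546, 2153 and 8946. With the 3 YAP Tg libraries added together, the counts were 30, 320 and 3586. Without 1 library they ran from 1218 to 3680 higher, 1394 to 2586 lower and 7642 to 9463 matching: leaving out YAP Tg library 1, 2 or 3 gave 1235, 1218 and 1224 higher and 1411, 1394 and 1430 lower, and leaving out treated library 1, 2 or 3 gave 3680, 3131 and 2323 higher. Leaving out genes with doubtful recovery, a fault that can only make treated levels too low, gave 1989 higher and 1250 lower genes out of 10843 tested. Higher genes were then 61.4% of calls, and the part of that fault in the lower count was not tested. No filter gave 13453 matching genes, since more genes were tested. Every other alternative stayed within 1.5 times: edgeR's quasi-likelihood test gave 1971, 2353 and 8753, DESeq2 2337, 2524 and 8070, all 12 libraries 3551, 2711 and 9931, and TPM in both groups 3051, 1751 and 8270. Higher genes were 54.2% of calls in the fit reported, 63.5% in TPM, 45.1% with DESeq2 size factors and 45.6% in edgeR's quasi-likelihood test. Without treated library 1, Nid1 changed sign and was called (0.33, range over fits without 1 library -0.31 to 0.33), and the cause was not tested. Over the named genes, 3589 values stayed on their side of the threshold, 280 lost the call, 37 gained it and 1 reversed. The replicate block gave 2173, 1974 and 8990, and the correlations of same-numbered libraries (-0.02, 0.11 and -0.03) gave no pairing. Depth limits genes at the floor of 3 reads, which is 0.0809 to 0.124 normalised reads in treated and 0.103 to 0.109 in YAP Tg libraries, and covers counting error only.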
